A study of Mus musculus with 2 samples.

Results

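The vascular endothelial growth factor (VEGF) and angiopoietin systems were followed through 10 genes of the 27999 in the deposited table, chosen by symbol: the VEGF ligands Vegfa, Vegfb and Vegfc, their receptors Flt1, Kdr and Flt4, the angiopoietins Angpt1 and Angpt2, and the Tie receptors Tek and Tie1. Each was measured in 6 cell classes of the mouse right ventricle: cardiomyocytes, capillary, endocardial and lymphatic endothelium, pericytes and fibroblasts. The data were 2 droplet libraries (RV_1 and RV_2, here library 1 and library 2) from C57/BL6J pups carrying CBP flox/flox, p300 flox/flox and Trap flox/flox, so that the genes for the acetyltransferases CBP and p300 can be cut out. AAV9, a viral vector with a preference for the heart, was given on postnatal day 1 to knock out both genes, and the right ventricle was taken on postnatal day 21. Both libraries carry the same genotype, strain, vector, ages and tissue, and no control library was analysed here, so the comparisons are between cell classes and say nothing of the knockout. What the vector carried, the promoter that drove it, the cells it reached and the number of pups per library are not given in the labels. The protocol names both flash freezing and collagenase, and whether the libraries hold whole cells or nuclei is not stated. The word cell therefore stands here for a barcode. The labels' protocol also names an enrichment with CD45 beads, which bind immune cells, yet macrophages were 2.44% and 6.56% of the kept cells.

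In background terms, VEGF-A made by the working tissue binds Flt1, a high-affinity receptor with weak kinase activity that also exists as a soluble trap, and Kdr, the main signalling receptor of blood vessel endothelium. VEGF-C binds Flt4, the receptor that drives lymphatic growth, and VEGF-B binds Flt1. Angiopoietin 1 keeps vessels quiet through the receptor Tek (Tie2), angiopoietin 2 is a context-dependent antagonist released by endothelium, and Tie1 is the partner receptor of Tek. In the heart, cardiomyocytes are a known source of VEGF-A, and mural and stromal cells are known sources of angiopoietin 1.

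Upstream sequence was available for 8 of the 10 genes in a RefSeq promoter table of GRCm38.p6. It is printed for Flt1, Kdr and Tek, receptors that were high in blood vessel endothelium, and for Vegfa, the ligand that was high in cardiomyocytes, so that the endothelial and the cardiomyocyte promoters can be read side by side. Each line runs 5′ to 3′ on the gene's strand and ends just before the first exon (250 bases, or 247 for Kdr, and the first of 2 listed starts for Vegfa), and the capitals mark GGAA, the core that ETS factors recognise, or TTCC, the same core on the other strand.
Flt1, chr5:147726012-147726261, minus strand: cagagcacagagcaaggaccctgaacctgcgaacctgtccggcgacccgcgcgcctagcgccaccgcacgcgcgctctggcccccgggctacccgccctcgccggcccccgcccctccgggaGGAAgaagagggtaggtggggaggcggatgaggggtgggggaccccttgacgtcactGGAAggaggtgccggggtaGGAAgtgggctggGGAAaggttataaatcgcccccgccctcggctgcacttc
Kdr, chr5:75978459-75978705, minus strand: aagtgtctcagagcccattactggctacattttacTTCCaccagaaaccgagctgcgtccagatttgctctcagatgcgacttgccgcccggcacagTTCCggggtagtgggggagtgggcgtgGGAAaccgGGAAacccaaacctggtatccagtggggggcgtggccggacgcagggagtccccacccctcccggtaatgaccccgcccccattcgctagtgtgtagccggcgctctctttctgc
Tek, chr4:94739039-94739288, plus strand: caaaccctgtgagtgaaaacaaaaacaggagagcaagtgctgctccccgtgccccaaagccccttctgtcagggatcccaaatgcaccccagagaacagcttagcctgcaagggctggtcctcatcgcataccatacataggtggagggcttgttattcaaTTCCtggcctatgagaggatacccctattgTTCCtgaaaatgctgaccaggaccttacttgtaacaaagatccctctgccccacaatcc
Vegfa, chr17:46032378-46032627, minus strand: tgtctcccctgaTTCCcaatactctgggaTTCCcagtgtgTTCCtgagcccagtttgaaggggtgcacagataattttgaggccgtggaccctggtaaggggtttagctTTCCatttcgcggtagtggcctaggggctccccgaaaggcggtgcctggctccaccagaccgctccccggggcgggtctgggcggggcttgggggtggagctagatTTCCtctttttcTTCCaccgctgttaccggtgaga
The ETS core was found 4 times in the Flt1 window, 4 times in that of Kdr, 2 times in that of Tek and 6 times in that of Vegfa, and 93.4% of 32851 RefSeq windows of 250 bases hold at least 1. At least as many matches were present in 33.4% of all windows for Flt1 and Kdr, 76.8% for Tek and 8.69% for Vegfa. Of the windows not printed, that of Tie1 held 7 ETS cores, with at least as many in 3.82% of all windows. Only 38 bases of the Tie1 window lie before the first exon. The other unprinted windows (Vegfb, Vegfc, Flt4 and the second Vegfa start) held 1 or 2. On both strands, 3 other motifs were searched, and no match in the printed windows overlapped a match of another motif. TATAAA was present in the Flt1 window, as in 12.4% of all windows. GGGCGG, the GC box, was present 3 times in the Flt1 window, 2 times in the Kdr and the Vegfa windows, with none in that of Tek, and in 32.7% of all windows. ACGTG, the core of the hypoxia response element, was in none of the 4 printed windows, was found once at the other listed Vegfa start, and was in 16.6% of all. These matches describe letters in short windows and do not show that a factor binds there.

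The 2 libraries held 12736 and 9447 barcodes with 57982200 and 50199793 unique molecular identifiers (UMIs, 1 per captured RNA molecule), and 20626 cells remained after filters and removal of called doublets. Of these, 17914 cells (86.9%) fell in the 6 classes, and 17 barcode sequences occurred in both libraries. Transcripts of the targeted genes were present: over all kept cells, Ep300 stood at 114 CPM and 144 CPM in libraries 1 and 2, and Crebbp, which encodes CBP, at 388 CPM and 509 CPM. CPM stands for the UMIs of a gene per 1000000 UMIs of those cells. These 3′ counts do not check an excision elsewhere in the gene. The 10 pan-endothelial markers summed to 2784 to 10382 CPM in the endothelial classes, against 42.8 and 70.1 CPM in cardiomyocytes. The 9 lymphatic markers summed to 7440 and 10334 CPM in lymphatic cells (libraries 1 and 2), and to at most 460 in any other of the 6 classes. The 11 endocardial markers had 18375 and 24085 CPM in their class (at most 2450 elsewhere). The 11 pericyte markers had 12205 and 13058 (at most 410), and the 11 fibroblast markers 18884 and 22209 (at most 2949). Clusters were named from these same lists, so these levels are no independent check of the names. The libraries differed in composition. Library 1 held 8480 cardiomyocytes against 2245 in library 2, 139 endocardial cells against 1002, 51 lymphatic cells against 184, 1056 fibroblasts against 2431, 634 capillary cells against 920 and 370 pericytes against 402. Transcripts of 10 cardiomyocyte markers were also counted in the other classes, at 8533 to 17822 CPM (library 1) and 2244 to 4612 CPM (library 2). Cardiomyocytes themselves had 58121 and 69264 CPM. Vegfa, Vegfb and Angpt1 were also higher in library 1 in each of the 6 classes, cardiomyocytes included. A link between these differences was not tested.

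Class differences were tested on summed counts, 1 sum per class and library, with edgeR's quasi-likelihood test and library as a block, over 12973 genes. A log2 difference of 1 is a doubling, its standard error (SE) is printed after it, and a gene was called at an adjusted p under 0.05 (Benjamini-Hochberg, over all genes). Where a class is set against several others, each of those counts equally on the log scale. With 2 libraries the p-values measure how far class differences vary between these libraries, and nothing in the labels says that these came from separate animals. None of the 10 genes or of the pathway genes was used to cluster the cells, but the classes come from other genes of the same cells. All 10 genes passed the filter on low counts. Between endothelial and non-endothelial classes, 7 of the 10 were higher in endothelium, where 23.6% of all genes were called higher, and 2 were lower, where 22.0% were (45.5% in either direction). Cardiomyocytes against the other classes had 3 higher (31.8% of all genes) and 7 lower (33.5%, with 65.3% in either direction). Fibroblasts against the others had 2 higher (19.3%) and 5 lower (14.0%, with 33.3% in either direction). Pericytes had 6 lower (9.11%) and 0 higher (11.8%, with 20.9% in either direction), also 0 at an unadjusted p under 0.05 and 0 with DESeq2. Without TMM scaling, the share of called genes that were higher fell from 48.7% to 28.2% in the cardiomyocyte comparison and rose from 51.7% to 65.2% in the endothelial one, with the median of all genes at −0.49 in place of −0.04 and at 0.11 in place of −0.04, and no called value of the 10 genes changed direction, while 4 of their uncalled values did. With called doublets kept, the pericyte class held 973 cells in place of 772, and several pericyte values given below moved.

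**Figure D1:**
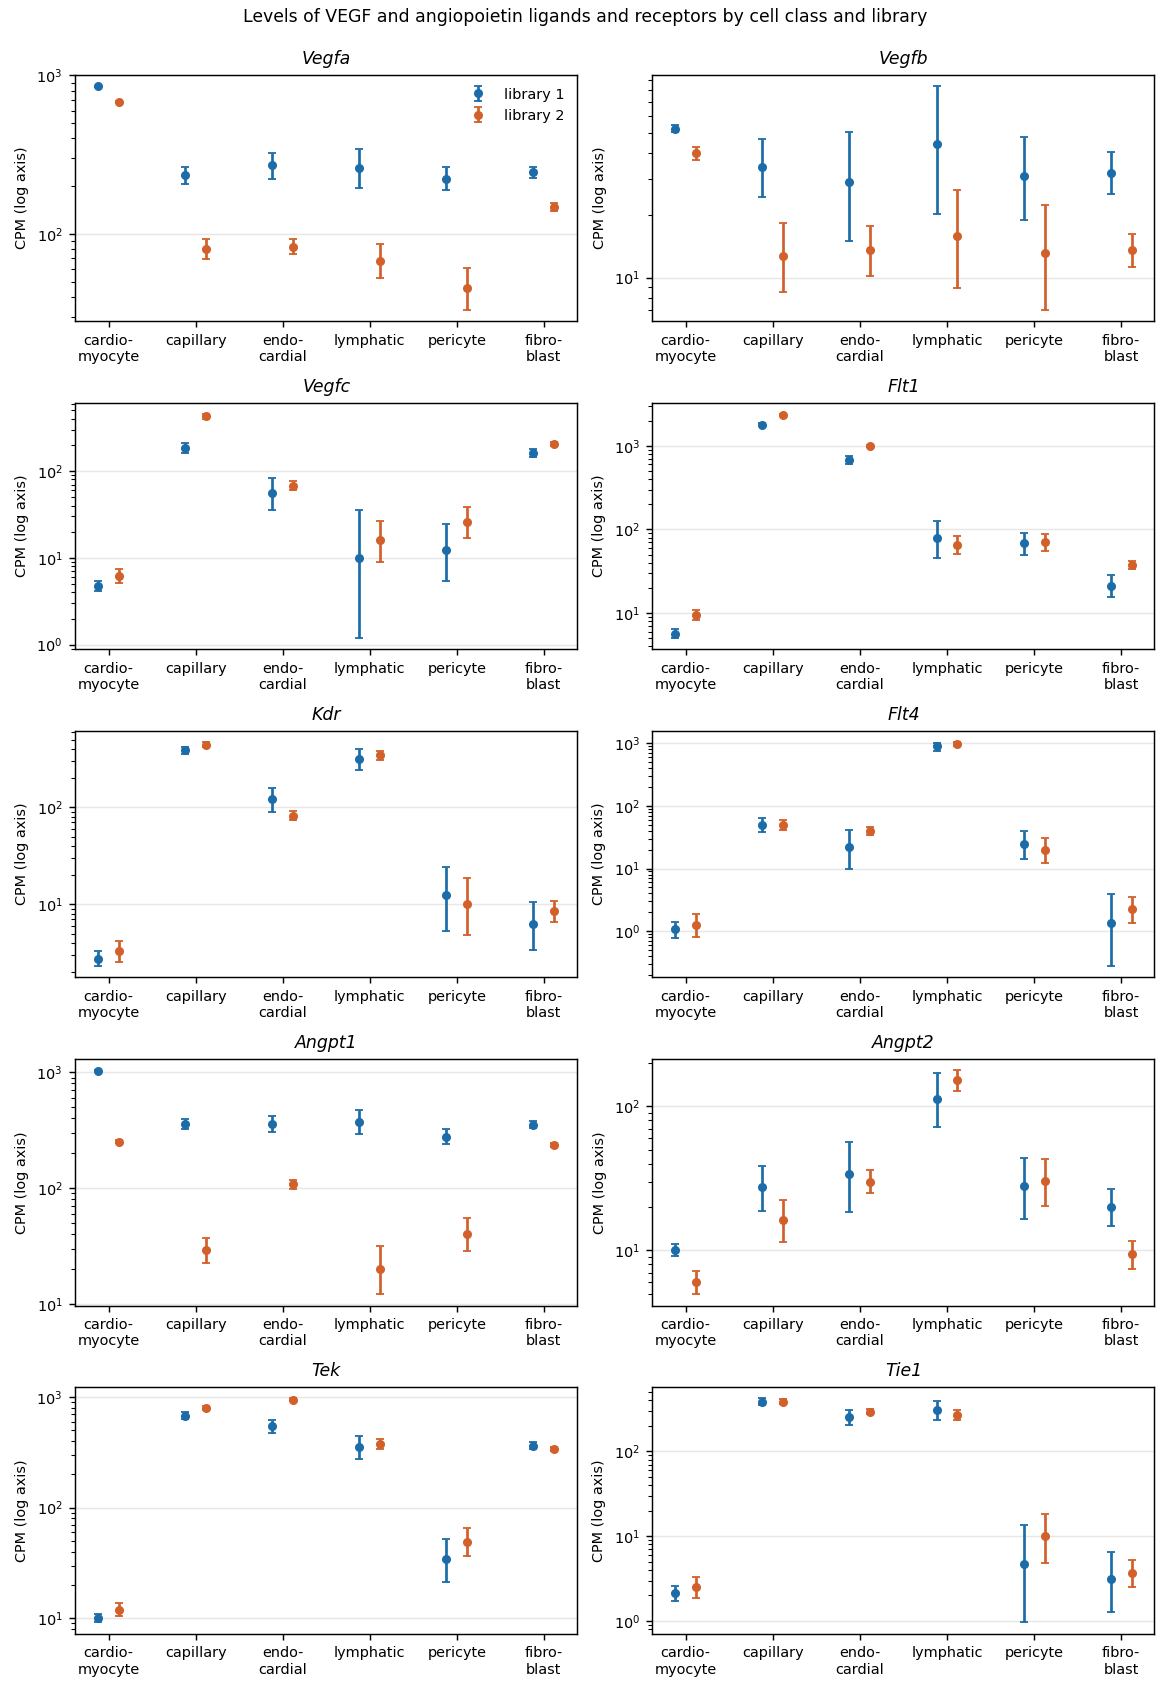
Level of each of the 10 genes (vertical log axis, CPM) in 6 cell classes (horizontal axis) of library 1 (blue) and library 2 (orange), with exact 95% Poisson intervals that cover counting error only. Flt1 is high in capillary and endocardial cells, Kdr, Tek and Tie1 in all 3 endothelial classes (Tek also in fibroblasts) and Flt4 in lymphatic cells in both libraries, while Vegfa, Vegfb and Angpt1 are higher in library 1 in every class.

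Vegfa, the main blood vessel growth factor, was highest in cardiomyocytes. The level there was 852 CPM (library 1) and 681 CPM (library 2). In fibroblasts it was 244 and 147 CPM, in capillary cells 234 and 80.5, in endocardial cells 270 and 83.0, in lymphatic cells 261 and 67.9, and in pericytes 223 and 45.3. The cardiomyocyte values lay above all others in both libraries (766 ± 121 CPM, SD, n = 2, against 196 ± 68.1 in fibroblasts, the next class), and the ranges of the other 5 classes overlapped their neighbours. Cardiomyocytes exceeded fibroblasts 3.49-fold in library 1 and 4.62-fold in library 2, and pericytes 3.82-fold and 15-fold. Against the mean of the other classes the log2 difference was 2.96 (SE 0.23, edgeR adjusted p = 3.33e-07), and it was 1.79 within library 1 alone and 3.09 within library 2 alone, on unscaled log2(CPM + 1). Cells thinned to 1000 UMIs each held a Vegfa UMI in 57.2% (4318 of 7550) and 50.6% (1131 of 2236) of cardiomyocytes, and in 18.4% (56 of 305) and 6.20% (24 of 387) of pericytes. Unthinned, these shares were 89.2% and 97.3% against 27.3% and 9.70%, at median depths of 4487 and 7368 UMIs against 1523 and 2262.

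The spread of Vegfa outside cardiomyocytes followed the library. The library 1 level exceeded that of library 2 by 1.25-fold in cardiomyocytes, 1.65-fold in fibroblasts and 2.91-fold to 4.92-fold in the other 4 classes. Per 1000 counts of the 10 cardiomyocyte markers in the same cells, cardiomyocytes of library 1 held 14.7 Vegfa counts, and so did capillary cells (14.7) and lymphatic cells (14.7), with pericytes at 16.8. In library 2 the same ratio was 9.83 in cardiomyocytes, 17.4 in capillary cells, 26.4 in lymphatic cells and 13.4 in pericytes. Fibroblasts stood apart with 28.6 and 65.7, and endocardial cells had 20.4 and 31.4. The part that cardiomyocyte RNA counted in other cells has in these Vegfa levels was not tested. The comparisons that set endothelium or pericytes against other classes include the high cardiomyocytes on the other side. In these, Vegfa was lower in endothelial than in non-endothelial classes by a log2 difference of −1.04 (SE 0.22, adjusted p = 0.00211; −0.50 within library 1; adjusted p = 0.147 without the library block), and lower in pericytes than elsewhere by −1.02 (SE 0.32, adjusted p = 0.0407). The pericyte value was −0.52 within library 1 and −1.56 within library 2. Its call was lost without the block (adjusted p = 0.509), without scaling (0.0602) and with upper-quartile scaling (0.0547), and the value was 0.02 with called doublets kept.

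**Figure D2:**
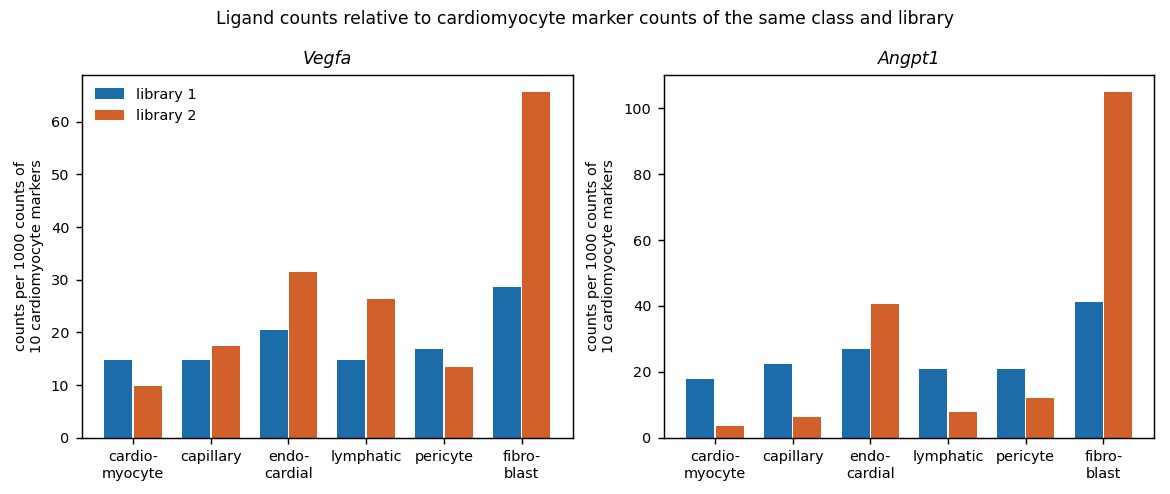
Counts of Vegfa (left) and Angpt1 (right) per 1000 counts of 10 cardiomyocyte marker genes (vertical axis, linear from 0) in each of 6 cell classes (horizontal axis) of library 1 (blue) and library 2 (orange); bars are single values with no error. Fibroblasts have the tallest bar for both ligands in both libraries, 28.6 and 65.7 for Vegfa and 41.1 and 105 for Angpt1.

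Vegfb, a VEGF that binds Flt1 and is linked to cardiac metabolism, was highest in cardiomyocytes and low in every class. It stood at 52.3 and 39.8 CPM in cardiomyocytes, and at 29.0 to 44.3 CPM in library 1 and 12.7 to 15.9 CPM in library 2 in the other 5 classes. Cardiomyocytes were highest in each library, but the range of their 2 values overlapped that of lymphatic cells. The difference from the other classes was 1.56 on the log2 scale (SE 0.17, adjusted p = 5.01e-06). On unscaled log2(CPM + 1) it was 0.62 within library 1 alone and 1.47 within library 2 alone, both below the fitted value. The TMM factors of the fit were 0.782 and 0.756 for cardiomyocytes and 0.985 to 1.17 for the other classes. In library 2 cardiomyocytes exceeded the other classes 2.50-fold to 3.12-fold. No other comparison of Vegfb was called.

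Vegfc, the lymphatic growth factor, was highest in capillary cells and fibroblasts. Capillary cells had 186 and 428 CPM, fibroblasts 163 and 205, and endocardial cells 55.5 and 68.1. Pericytes had 12.4 and 26.2 CPM, lymphatic cells 9.85 and 15.9, from 2 and 15 counts, and cardiomyocytes 4.72 and 6.20. The capillary and fibroblast ranges overlapped, both lay above the endocardial range, and cardiomyocytes lay below every other class. Fibroblasts exceeded the mean of the other classes by 2.52 (SE 0.16, adjusted p = 1.20e-07). Capillary cells exceeded endocardial cells by 2.35 (SE 0.24, adjusted p = 2.88e-05) and lymphatic cells by 4.63 (SE 0.34, adjusted p = 1.68e-06), and endocardial exceeded lymphatic cells by 2.28 (SE 0.38, adjusted p = 0.00125). Lymphatic cells, the class with the most Flt4, were thus among the lowest for Vegfc. In a small arterial class outside the 6, Vegfc was at 578 CPM (21 counts in 10 cells) and 793 CPM (102 counts in 47 cells). Pericytes were lower than the mean of the other classes by −1.36 (SE 0.28, adjusted p = 0.00363). That call was lost without the library block (adjusted p = 0.0533) and with called doublets kept (0.203). The value was −2.13 at a finer clustering and −2.11 with a stricter cell filter.

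Among the VEGF receptors, Flt1 marked capillary and endocardial cells. Capillary cells had 1788 and 2346 CPM and endocardial cells 681 and 993. Lymphatic cells had 78.8 and 65.8 CPM, pericytes 68.2 and 70.5, fibroblasts 21.4 and 38.1, and cardiomyocytes 5.71 and 9.54. Only lymphatic cells and pericytes overlapped among the 5 neighbouring pairs of that order. The endothelial classes exceeded the others by 4.13 (SE 0.15, adjusted p = 6.84e-10). Within endothelium, where 8.57% of all genes were called higher in capillary than in endocardial cells (16.5% in either direction) and 9.18% higher than in lymphatic cells (17.0%), Flt1 was among the 4 genes called higher in capillary cells in each comparison, by 1.36 (SE 0.21, adjusted p = 0.000653) and by 5.08 (SE 0.27, adjusted p = 1.97e-07). None of the 10 was called lower in capillary than in endocardial cells (0 at an unadjusted p under 0.05, 0 with DESeq2), where 7.91% of all genes were, and 2 were lower than in lymphatic cells, where 7.85% were. Gene counts of this kind do not separate membrane-bound from soluble Flt1.

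Flt1 in pericytes was low and uncertain in its place. It was higher there than in fibroblasts by 1.25 (SE 0.25, adjusted p = 0.00314), in a comparison with 3 of the 10 genes higher in pericytes (8.49% of all genes) and 2 lower (10.7%, with 19.1% in either direction). With called doublets kept that value was 2.49. Against the mean of the other classes it was lower by −0.87 (SE 0.20, adjusted p = 0.00837). Both calls were lost without the library block (adjusted p = 0.0739 and 0.0981), and with called doublets kept the second value turned to 0.44. The summed pan-endothelial markers stood at 360 and 457 CPM in pericytes, 201 and 276 CPM in fibroblasts and 8949 and 10382 CPM in capillary cells, and the part of endothelial RNA in the pericyte level was not tested. Against the mean of the other classes, endothelium included, the other receptors apart from Flt4 were called lower in pericytes. Kdr was lower by −2.24 (SE 0.27, adjusted p = 5.94e-05), Tek by −2.58 and Tie1 by −2.68. With called doublets kept these values became −0.57 (call lost, adjusted p = 0.0546), −1.52 and −1.13. Pericytes still lay above cardiomyocytes for Kdr, Tek and Tie1. Their means were also above those of fibroblasts for Kdr (11.2 and 7.35 CPM) and Tie1 (7.36 and 3.41 CPM), but neither difference was called. These were 0.55 for Kdr (SE 0.36, edgeR adjusted p = 0.404) and 1.20 for Tie1 (SE 0.39, adjusted p = 0.0755). The pericyte levels rest on 8 and 10 counts of Kdr and 3 and 10 counts of Tie1.

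Kdr, the main signalling receptor, was shared by capillary and lymphatic cells. Levels were 386 and 444 CPM in capillary cells and 315 and 344 CPM in lymphatic cells. Endocardial cells had 121 and 82.2 CPM, and pericytes, fibroblasts and cardiomyocytes had 12.4 and 10.1, 6.25 and 8.45, and 2.76 and 3.28. No neighbouring classes in that order overlapped. The endothelial excess was 5.06 (SE 0.14, adjusted p = 1.35e-10). Endocardial cells were below capillary cells (2.17 for capillary minus endocardial, SE 0.20, adjusted p = 1.36e-05) and below lymphatic cells (−1.71 for endocardial minus lymphatic, SE 0.21, adjusted p = 0.000144), while capillary and lymphatic cells differed by 0.46 (SE 0.19, adjusted p = 0.138), which was not called. Endocardial against lymphatic cells had 3 of the 10 genes higher (7.21% of all genes) and 3 lower (6.85%, with 14.1% in either direction). Among cells thinned to 1000 UMIs, Kdr was found in 30.4% (162 of 533) and 31.6% (275 of 871) of capillary cells, against 0.159% (12 of 7550) and 0.537% (12 of 2236) of cardiomyocytes, which should lack it. The unthinned shares were 43.4% and 51.4% against 1.36% and 2.76%.

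The balance of Flt1 and Kdr therefore differed between endothelial classes. Of the counts of both genes, Flt1 made up 82.2% (95% exact interval 80.7 to 83.7) and 84.1% (83.2 to 85.0) in capillary cells and 84.9% (80.6 to 88.6) and 92.4% (91.5 to 93.1) in endocardial cells. In lymphatic cells it made up 20% (11.9 to 30.4) and 16.1% (12.5 to 20.1). These shares are not corrected for gene length and can be compared between classes only, and the intervals cover counting error only. Lymphatic cells lay far below both blood-side classes in each library, and endocardial cells lay above capillary cells beyond counting error in library 2 but not in library 1.

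Flt4, the VEGF-C receptor, was a lymphatic gene. Lymphatic cells had 887 and 982 CPM. Capillary cells had 49.7 CPM in both libraries, endocardial cells 21.7 and 39.8, pericytes 24.8 and 20.1, fibroblasts 1.34 and 2.26, and cardiomyocytes 1.07 and 1.25. The lymphatic level exceeded the capillary level 17.9-fold and 19.8-fold, and the endocardial and pericyte ranges overlapped. On the log2 scale capillary minus lymphatic was −4.10 (SE 0.21, adjusted p = 1.39e-07) and endocardial minus lymphatic −4.68 (SE 0.22, adjusted p = 1.16e-07). Pericytes exceeded fibroblasts by 3.51 (SE 0.36, adjusted p = 1.57e-05), from 16 and 20 counts in pericytes and 3 and 19 in fibroblasts. Thinned to 1000 UMIs, 60% (30 of 50) and 56.6% (103 of 182) of lymphatic cells held a Flt4 UMI, against 0.106% and 0.179% of cardiomyocytes, and unthinned the shares were 86.3% and 88.0% against 0.554% and 1.02%.

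**Figure D3:**
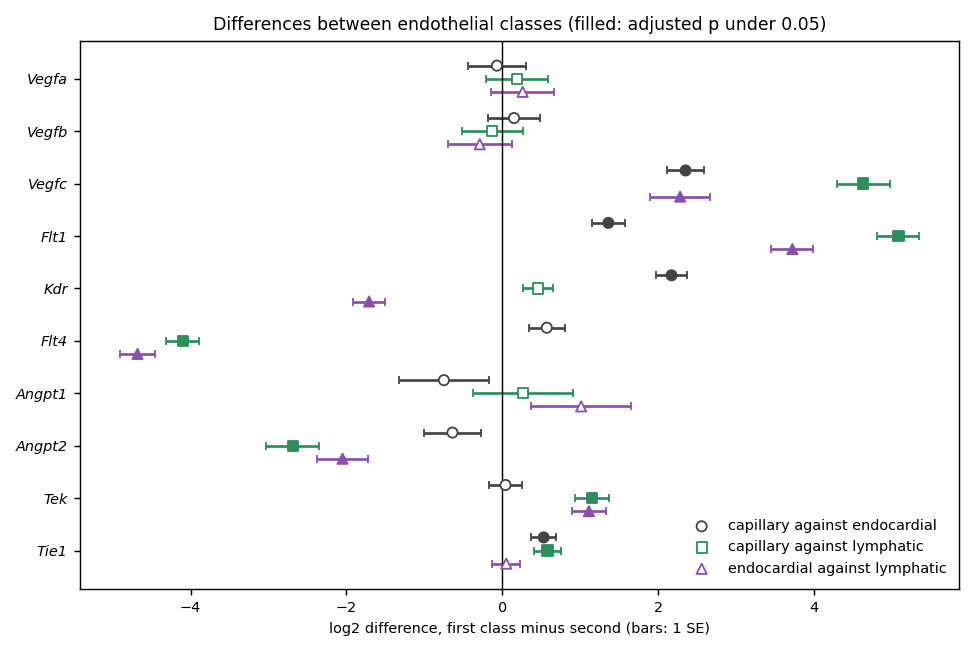
Log2 difference (horizontal axis) of each of the 10 genes (vertical axis) between pairs of endothelial classes, first class minus second, with bars of 1 SE and filled symbols for an adjusted p under 0.05. Flt1 and Vegfc lie right of 0 in all pairs, Flt4 and Angpt2 lie at −4.10 and −2.69 for capillary against lymphatic cells, and Vegfa, Vegfb and Angpt1 have no filled symbol.

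Angpt1, the ligand that activates Tek, had its highest values in cardiomyocytes but was the gene that differed most between the libraries. Cardiomyocytes had 1034 CPM (library 1) and 251 CPM (library 2). Fibroblasts had 351 and 235 CPM, endocardial cells 357 and 108, capillary cells 357 and 29.0, lymphatic cells 374 and 20.2, and pericytes 277 and 40.3. Every pair of neighbours in the order of means overlapped, cardiomyocytes (642 ± 553 CPM, SD, n = 2) and fibroblasts (293 ± 81.7) included. Library 1 exceeded library 2 by 4.12-fold in cardiomyocytes, 1.49-fold in fibroblasts and 18.6-fold in lymphatic cells. The small arterial class outside the 6 went the other way. It had 275 CPM in library 1 (10 counts in 10 cells) and 583 CPM in library 2 (75 counts in 47 cells), where cardiomyocytes had 251 CPM. Cardiomyocytes exceeded fibroblasts 2.95-fold in library 1 and 1.07-fold in library 2. With library as a block, cardiomyocytes exceeded the other classes by 2.16 (SE 0.37, adjusted p = 0.000231), and without the block the call was lost (adjusted p = 0.0578). On unscaled log2(CPM + 1) the difference was 1.59 within library 1 and 2.11 within library 2, both below the fitted value. Endothelium was lower by −1.13 (SE 0.34, adjusted p = 0.0178), with −0.36 within library 1, −1.72 within library 2 and adjusted p = 0.431 without the block.

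Angpt1 counts relative to the cardiomyocyte markers were highest in fibroblasts, then in endocardial cells, which stood close to capillary cells in library 1. Per 1000 marker counts, library 1 held 17.8 Angpt1 counts in cardiomyocytes, 22.5 in capillary cells, 21.0 in lymphatic cells and 20.9 in pericytes, against 26.9 in endocardial cells and 41.1 in fibroblasts. Library 2 held 3.63, 6.29, 7.83 and 11.9 in the same first 4 classes, against 40.7 in endocardial cells and 105 in fibroblasts. The part of cardiomyocyte RNA in the Angpt1 level of other classes was not tested. Fibroblasts minus the other classes was 0.89 (SE 0.42, adjusted p = 0.128), and pericytes minus fibroblasts −1.58 (SE 0.60, adjusted p = 0.0948), so neither was called. Within library 1 alone these values were −0.27 and −0.34, and within library 2 alone 2.0 and −2.52. Without a filter on low counts both were (adjusted p = 1.27e-07 and 5.29e-11), and the second was also called with all named classes in the fit (0.0354). An antisense gene, Gm17473, overlaps Angpt1 and had 1177 counts, and the sources used here do not state whether counting used strand.

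Within cardiomyocytes, Angpt1 was uneven between clusters. In a cluster with Fgf14, Sema3a and Angpt1 itself among its leading genes (cluster 3), it reached 1905 CPM in 1480 cells of library 1 and 626 CPM in 94 cells of library 2. The next highest cluster of at least 20 cells was lower by 1.93-fold and 2.17-fold, and the lowest values were 719 and 225 CPM. The difference between the libraries held inside clusters: in cluster 9, which holds most library 2 cardiomyocytes, it was 770 CPM in 445 cells of library 1 and 225 CPM in 1719 cells of library 2. Vegfa did not follow this pattern, with its lowest cardiomyocyte values in cluster 3 (716 and 581 CPM) and a range up to 994 and 873 CPM. Without cluster 3 the Angpt1 difference of cardiomyocytes from the other classes was 1.90 (adjusted p = 0.000775). A small cluster with atrial markers, outside the 6 classes, had 1935 CPM (82 cells) and 1118 CPM (8 cells).

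Within fibroblasts the ligands and Tek differed between clusters. A small cluster led by Thsd7b, with Svep1 and Ccbe1 also among its leading genes (cluster 22; 23 and 183 cells), had the highest Angpt1 of the 3 fibroblast clusters, at 808 and 937 CPM, and the highest Vegfc, at 538 and 524 CPM. In library 1 these rest on 39 and 26 counts. A cluster with Pi16 among its leading genes (cluster 16; 184 and 597 cells) had the lowest Angpt1, at 201 and 91.5 CPM, and the highest Vegfa, at 316 and 211 CPM. The large cluster with Bmper among its leading genes (cluster 15) lay between them for both genes, at 376 and 221 CPM of Angpt1 and 228 and 129 CPM of Vegfa. Tek ran opposite to Angpt1, with 558 and 481 CPM in the Pi16 cluster, 320 and 294 in the Bmper cluster and 166 and 168 in the Thsd7b cluster. Flt1 and Kdr did not follow Tek. They were highest in the Thsd7b cluster, at 166 and 151 CPM of Flt1 (8 and 89 counts) and 82.8 and 17.0 CPM of Kdr (4 and 10 counts), against at most 33.5 CPM of Flt1 and 8.93 CPM of Kdr in the other fibroblast clusters. The part of endothelial RNA in the values of this small cluster was not tested. These clusters came from the same cells and are described with no test. The order was the same in both libraries for Angpt1, Vegfa, Vegfc and Tek.

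**Figure D4:**
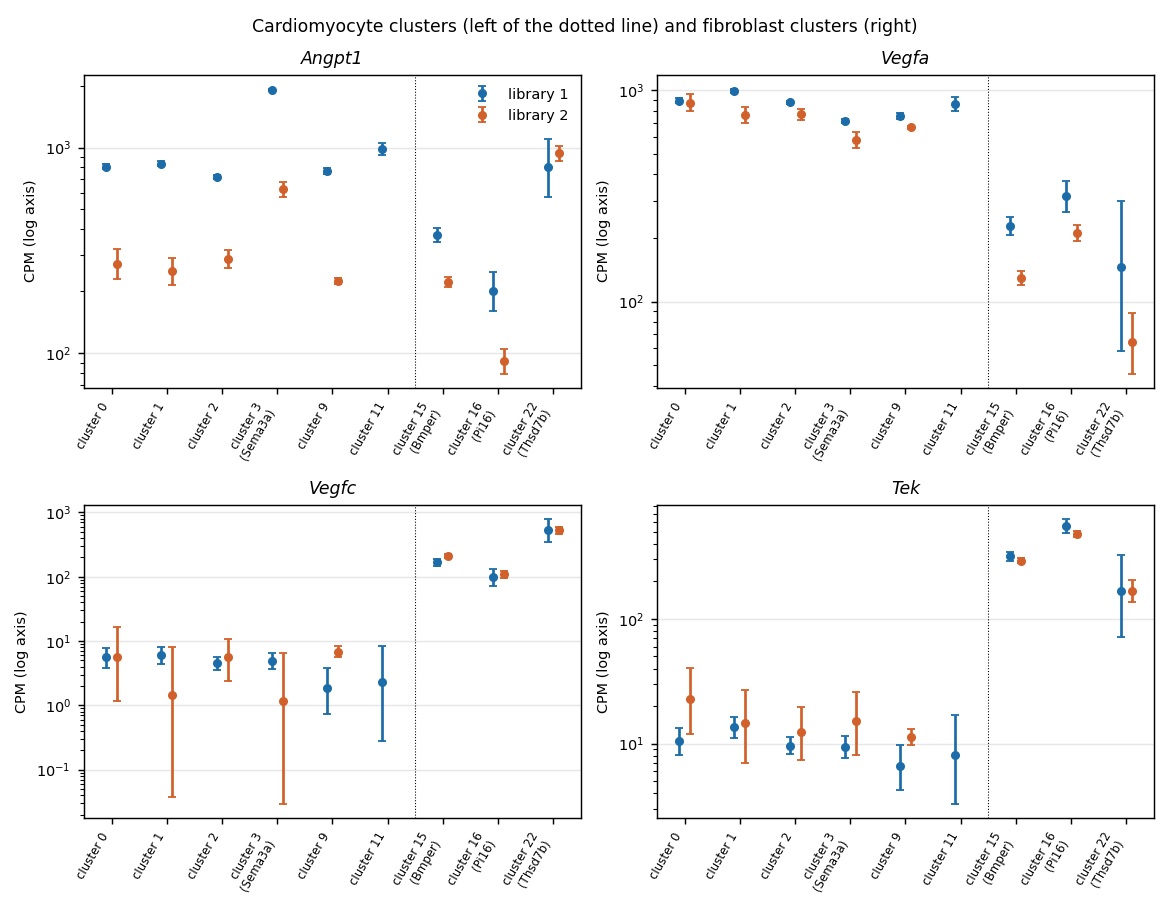
Level (vertical log axis, CPM) of Angpt1, Vegfa, Vegfc and Tek in each cardiomyocyte cluster (left of the dotted line) and fibroblast cluster (right) with at least 20 cells in a library, for library 1 (blue) and library 2 (orange), with exact 95% Poisson intervals. Angpt1 peaks in cluster 3 (1905 and 626 CPM) and in cluster 22 (808 and 937 CPM), and Tek is lowest among fibroblasts in cluster 22 (166 and 168 CPM).

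Angpt2, the vessel-destabilising angiopoietin, was highest in lymphatic cells. Lymphatic cells had 113 and 152 CPM. Endocardial cells had 33.8 and 30.0 CPM, pericytes 27.9 and 30.2, capillary cells 27.4 and 16.3, fibroblasts 20.1 and 9.40, and cardiomyocytes 10.1 and 6.0. The lymphatic values lay above all others, and among the remaining neighbours only pericytes and capillary cells did not overlap. Outside the 6 classes, smooth muscle cells (55 and 22 cells) averaged 61.1 ± 24.9 CPM (SD, n = 2), between the lymphatic and endocardial means. Capillary minus lymphatic was −2.69 (SE 0.34, adjusted p = 0.000134) and endocardial minus lymphatic −2.05 (SE 0.33, adjusted p = 0.000929), and the endothelial classes exceeded the others by 1.53 (SE 0.20, adjusted p = 5.67e-05). Pericytes exceeded fibroblasts by 1.19 (SE 0.38, adjusted p = 0.0492; 0.45 within library 1), a call lost without the block (0.155) and at a finer clustering (0.0659). Fibroblasts were below the mean of the other classes by −1.28 (SE 0.26, adjusted p = 0.00218), with −0.62 within library 1. Angpt2 lies inside Mcph1, a gene on the opposite strand with 4098 counts in the kept cells.

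Tek, the angiopoietin receptor, was high in endothelium and also in fibroblasts. Endocardial cells had 546 and 945 CPM, capillary cells 678 and 797, and lymphatic cells 355 and 378. Fibroblasts had 363 and 337 CPM, against 34.1 and 49.4 in pericytes and 10.1 and 12 in cardiomyocytes. Endocardial and capillary ranges overlapped, as did lymphatic and fibroblast ranges, and pericytes and cardiomyocytes lay well below. Endothelium exceeded the other classes by 3.26 (SE 0.14, adjusted p = 2.51e-09). Fibroblasts exceeded the mean of the other classes by 1.08 (SE 0.15, adjusted p = 0.000130), and pericytes minus fibroblasts was −3.06 (SE 0.25, adjusted p = 3.19e-06). Capillary cells exceeded lymphatic cells by 1.15 (SE 0.22, adjusted p = 0.00293), and endocardial cells did by 1.11 (SE 0.22, adjusted p = 0.00426; 0.62 within library 1; 0.0600 without the block). Capillary and endocardial cells differed by 0.04 (SE 0.21, adjusted p = 0.956).

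Fibroblast Tek was not accompanied by the endothelial partner Tie1. Tie1 stood at 3.13 and 3.69 CPM in fibroblasts, from 7 and 31 counts. Of the counts of both Tie receptors, Tie1 made up 0.853% (95% exact interval 0.343 to 1.75) and 1.08% (0.737 to 1.53) in fibroblasts, 36.4% and 32.5% in capillary cells, 31.7% and 23.8% in endocardial cells and 46.3% and 41.7% in lymphatic cells. Thinned to 1000 UMIs, 27.2% (274 of 1008) and 25% (604 of 2412) of fibroblasts held a Tek UMI, against 1.07% and 1.61% of cardiomyocytes and 2.30% and 5.17% of pericytes. The unthinned shares in fibroblasts were 44.1% and 52.9%, against 5.01% and 9.40% in cardiomyocytes, at median depths of 1900 and 3105 against 4487 and 7368 UMIs.

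Tie1 was near even within endothelium and close to 0 elsewhere. Capillary cells had 388 and 384 CPM, lymphatic cells 305 and 271, and endocardial cells 253 and 295. Pericytes had 4.65 and 10.1 CPM and cardiomyocytes 2.14 and 2.50. The endothelial difference was 6.14 (SE 0.13, adjusted p = 4.37e-11), with capillary values 181-fold and 154-fold above those of cardiomyocytes. Lymphatic and endocardial ranges overlapped (0.05 for endocardial minus lymphatic, SE 0.18, adjusted p = 0.928). Capillary cells were higher than endocardial cells by 0.53 (SE 0.16, adjusted p = 0.0456) and than lymphatic cells by 0.58 (SE 0.17, adjusted p = 0.0354; 0.34 within library 1). Without the block these adjusted p were 0.295 and 0.232, and with DESeq2 they were 0.0932 and 0.0934, so both calls depend on the fit.

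The other genes of the pathways were taken from 5 lists, and a list is described by its counts and its median log2 difference. Among further ligands, co-receptors and extracellular partners, 3 of 8 tested genes were higher and 3 lower in endothelial against non-endothelial classes (median 0.31, against −0.04 over all genes, of which 23.6% were called higher and 22.0% lower). Ptprb, a phosphatase that restrains Tek (5.50, SE 0.15, adjusted p = 1.17e-10), and Nrp2, a co-receptor for VEGF-C (4.60, SE 0.14, adjusted p = 1.63e-10), were higher. Ccbe1, a cofactor of VEGF-C processing, was lower (−2.69, SE 0.30, adjusted p = 1.49e-05), as was Adamts3, the protease it works with (−1.41, SE 0.23, adjusted p = 0.000321). Fibroblasts had 5 of 8 higher and 2 lower (median 1.04, against 0.00 over all genes, of which 19.3% were higher and 14.0% lower). Svep1, which binds Tie1 (270 and 336 CPM in fibroblasts, 5.20, SE 0.18, adjusted p = 7.54e-10), Ccbe1 (503 and 671 CPM, 5.06, SE 0.24, adjusted p = 7.61e-09) and Pgf, a ligand of Flt1 (41.1 and 36.8 CPM, 3.06, SE 0.24, adjusted p = 7.44e-07), led the higher genes. In cardiomyocytes 5 of 8 were lower and 1 higher (median −2.93, against −0.04 over all genes, of which 33.5% were lower and 31.8% higher), with Nrp2 at −5.66 (SE 0.23, adjusted p = 5.72e-09).

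The same list split the endothelial classes. Capillary against lymphatic cells had 2 of 8 higher and 3 lower (9.18% and 7.85% of all genes), and endocardial against lymphatic cells 2 higher and 2 lower (7.21% and 6.85%). Nrp1, the co-receptor for VEGF-A, was at 1344 and 1629 CPM in capillary cells, 1436 and 1319 in endocardial cells and 237 and 106 in lymphatic cells (3.42 for capillary minus lymphatic, SE 0.31, adjusted p = 1.05e-05). Nrp2 had 572 and 643 CPM in capillary cells, 164 and 162 in endocardial cells and 1148 and 1190 in lymphatic cells (−2.76 for endocardial minus lymphatic, SE 0.22, adjusted p = 4.05e-06). Nrp1 was thus higher on the blood side and Nrp2 in lymphatic cells. Pgf was higher in lymphatic cells than in capillary cells (−3.86 for capillary minus lymphatic, SE 0.49, adjusted p = 0.000152), at 49.3 and 50.9 CPM against 1.71 and 3.96. Figf, which encodes VEGF-D, was at 55.5 and 107 CPM in endocardial cells and 4.28 and 8.35 in capillary cells (−3.66 for capillary minus endocardial, SE 0.36, adjusted p = 1.82e-05), in a comparison with 2 of 8 higher in capillary cells and 1 lower (8.57% and 7.91% of all genes).

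Of the genes that carry VEGF receptor signals, 8 of 11 tested were higher in endothelium and 2 lower (median 1.03), against 23.6% and 22.0% of all genes. Nos3, the endothelial nitric oxide synthase, differed most (5.65, SE 0.14, adjusted p = 6.00e-11), with 309 and 412 CPM in endocardial, 181 and 211 in capillary and 98.5 and 121 in lymphatic cells. Dab2, an adaptor in receptor uptake (2.49, SE 0.16, adjusted p = 1.25e-07), and Mapk3, the kinase also called Erk1 (2.13, SE 0.17, adjusted p = 1.04e-06), followed. Dab2 was not confined to endothelium. It had 212 and 521 CPM in lymphatic, 155 and 211 in endocardial and 127 and 182 in capillary cells. Fibroblasts had 126 and 131 CPM, pericytes 52.7 and 59.4 and cardiomyocytes 3.99 and 7.82. For Tie receptor signalling, 4 of 7 were higher and 2 lower in endothelium (median 0.47), the share lower being near the 22.0% of all genes. The list was led by the transcription factor Klf2 (3.03, SE 0.13, adjusted p = 2.21e-09). Pericytes had 3 of those 7 higher and 2 lower (median 0.63, against −0.07 over all genes, of which 11.8% were higher and 9.11% lower), with Klf2 among the lower genes (−2.09, SE 0.23, adjusted p = 2.13e-05).

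Of 11 genes known to be induced by VEGF, 7 passed the filter, and 5 of these were higher in endothelium (median 2.61), where 23.6% of all genes were. None was lower by edgeR (0 at an unadjusted p under 0.05, 0 with DESeq2). Capillary cells had 4 of 7 higher than endocardial cells and 1 lower (8.57% and 7.91% of all genes). Aplnr, the apelin receptor, was at 140 and 152 CPM in capillary and 2.41 and 2.83 in endocardial cells (5.76, SE 0.30, adjusted p = 1.80e-07). Plvap, which forms the diaphragms of fenestrae, ran the other way, with 179 and 251 CPM in endocardial and 3.43 and 16.7 in capillary cells (−4.29, SE 0.29, adjusted p = 1.19e-06). Dll4, a Notch ligand, was highest in capillary cells, at 64.2 and 51.9 CPM (4.55 for endothelial against non-endothelial classes, SE 0.31, adjusted p = 1.85e-07). Esm1, a tip cell gene, did not pass the filter and had at most 1.71 CPM.

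Of 10 genes for oxygen sensing and the control of Vegfa, 5 were higher and 3 lower in cardiomyocytes (median 0.52, against −0.04). Over all genes 31.8% were higher and 33.5% lower, so the share of the list that was lower lay near that of all genes. Ppargc1a, a coactivator of mitochondrial genes that can raise Vegfa, had 1154 and 1601 CPM in cardiomyocytes (3.84, SE 0.30, adjusted p = 3.24e-07). Its partner Esrra had 265 and 209 CPM (2.61, SE 0.16, adjusted p = 6.31e-08). Hif1a, a hypoxia-inducible factor, had 213 and 290 CPM (1.62, SE 0.16, adjusted p = 2.55e-06). Epas1, the related factor of endothelium, was lower in cardiomyocytes (−1.29, SE 0.14, adjusted p = 4.62e-06) and stood at 607 and 705 CPM in capillary cells. Outside cardiomyocytes Ppargc1a had 200 to 399 CPM in library 1 and 75.3 to 106 CPM in library 2, a gap between libraries like that of Vegfa.

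Across the 12 class sums, the genes whose levels on log2(CPM + 1) ran most like each of the 10 were sought among 9984 genes with a mean of at least 10 CPM. These correlations share libraries, depths and classes and are given as a description. Tie1 ran closest to Egfl7, a secreted endothelial factor that was also one of the class markers (Pearson r = 0.998), then Rasip1 and Podxl (both 0.994). Kdr ran closest to Arhgap25 (0.990), then Kank3 and Rasgrf2. Tek ran closest to Csgalnact1 (0.992), then Klf3 and Grasp. Flt1 was followed by Fryl and Srgn (both 0.965) and Tmtc2, and Flt4 by Phc2 (0.968), Apold1 and Map4k2. Vegfa was closest to Ndrg4 (0.991), then Ces1d and Ank1 (both 0.978). Vegfb was closest to Slc38a3 (0.985), then Deb1 and Pfkfb1. Vegfc was closest to Dlg2 (0.982), then Lims2 and Zhx3. Angpt2 was closest to Tpx2 (0.980), then Tmem132a and Clca3a1. Angpt1 had the weakest match, with Nkiras1 at 0.942, Phkg1 at 0.937 and Cacna1g at 0.930.

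On GRCm38, as annotated by GENCODE M21, Vegfa lies at chr17:46016993-46032369, Vegfb at chr19:6982473-6987651 and Vegfc at chr8:54077606-54187096. Flt1 lies at chr5:147561604-147726011, Kdr at chr5:75932827-75978458 and Flt4 at chr11:49609263-49652739. Angpt1 lies at chr15:42424723-42676977, Angpt2 at chr8:18690263-18741562, Tek at chr4:94739289-94874976 and Tie1 at chr4:118471191-118490061.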

How the data were processed

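Droplet 3′ RNA libraries of the right ventricle were deposited as 1 matrix of UMI counts (27999 genes, 22183 barcodes). The median mitochondrial share of UMIs per barcode was 0.338% in library 1 and 0.229% in library 2. The authors made these counts with Cell Ranger 6.0.0, per the file headers, on GRCm38 (mm10), per the submitters' processing notes; the handling of strand and introns in that counting is not stated in the labels or headers. A barcode's suffix gave its library. Barcodes with at least 500 UMIs, 200 genes and at most 25% mitochondrial UMIs were kept (22137). Scrublet called 609 and 695 doublets (4.78% and 7.39%), which were removed with a cluster rich in them, 1511 barcodes in all. Cells were clustered with scanpy 1.11.5 (2000 variable genes without the 10 genes and the pathway genes, 30 components, 15 neighbours, Leiden resolution 1.0), and 25 clusters were named from marker lists. A cluster stayed unnamed if it was small, had too few markers or carried many cardiomyocyte transcripts (945 cells). The 10 genes and all lists were chosen with earlier results of these data known.

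Counts were summed per class and library (12 sums) and fitted with edgeR 4.0.16 (TMM, filterByExpr, quasi-likelihood test, library as a block, since the 6 classes of 1 library share that library), over 8 comparisons. Total depth per class sum was 202947 to 44871347 UMIs. Poisson and exact (Clopper-Pearson) 95% intervals cover counting error only. Named genes were the 10 in every class, at most 4 called genes with the largest difference per pathway list and comparison, and the 3 most alike genes for each of the 10. 1 gene that this rule selects from a pathway list is not reported here. The scripts were tested on simulated data. Alternatives were no block, other scaling, DESeq2 1.42.0, no filter, other clusterings and cell filters, doublets kept, all classes in the fit, each library alone and, chosen after seeing the data, 2 clusters left out in turn.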

Additional observations from a re-analysis of the deposited data

Results flagged for a closer look

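Among classes outside the 6 with at least 20 cells in each library, which leaves out the small arterial and atrial classes, 4 mean levels of the 10 genes were at least 50% of the mean in the highest class. Kdr averaged 360 CPM in cells with epicardial or mesothelial markers (321 and 398 CPM), between the capillary (415 ± 40.8 CPM, SD, n = 2) and lymphatic (330 ± 20.1 CPM) means, from 95 and 1193 counts. In these cells Flt1 made up 12.8% (95% exact interval 7.20 to 20.6) and 7.66% (6.27 to 9.25) of the counts of both receptors, and Tie1 stood at 20.3 and 8.68 CPM. Thinned to 1000 UMIs, 18.3% (11 of 60) and 31.4% (170 of 541) of them held a Kdr UMI, and unthinned 56.7% and 70.1%. The part of endothelial RNA in this level was not tested. Vegfb, which was low in every class, averaged 28.7 CPM in the same cells, 28.4 CPM in smooth muscle cells and 23.3 CPM in macrophages, against 46.0 ± 8.85 CPM (SD, n = 2) in cardiomyocytes.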

How the results depend on the processing

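Over 80 pairs of a gene and a comparison, 860 refits left 813 on the same side of the threshold, with 33 calls lost, 12 gained and 2 values reversed. The 813 include values that changed direction but were called in neither fit, such as 4 without scaling. Both reversals came from keeping called doublets and concern pericytes against the other classes: 0.44 for Flt1 and 0.02 for Vegfa. Without the replicate block (library), which pairs the classes of a library by construction, 11 calls were lost, all named in the report. It also lowered the count of genes called to 1216 from 2138 for capillary against endocardial, 1360 from 2209 for capillary against lymphatic, 1102 from 1825 for endocardial against lymphatic, 2710 from 4321 for fibroblasts against the other classes and 1540 from 2483 for pericytes against fibroblasts. With doublets kept the last count was 3780. The cause of these shifts was not tested. The 2 Tie1 calls within endothelium were lost under most alternatives (adjusted p 0.0674 to 0.398 and 0.0517 to 0.358). Levels from fewer than 20 counts, such as Vegfc in lymphatic cells, Kdr and Tie1 in pericytes and Flt4 in fibroblasts, are limited by depth. Over the 2 scalings, DESeq2 and the clusterings, no called value changed sign. Without scaling the median over all genes also moved from 0.00 to 0.11 for fibroblasts and from 0.08 to −0.04 for capillary against lymphatic cells. In a library with 51 lymphatic cells, 3 counts correspond to 14.8 CPM. With 1 library left out no test is possible within the other, because each class then has 1 sum. Comparisons that share classes are not independent of each other.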
